A study of Mus musculus with 3 samples.

Results

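Mesothelial cells form the flat epithelial sheet that covers the heart and the great vessels where they face the pericardial cavity. On the heart this sheet is called the epicardium. It secretes a lubricating surface coat, rests on a basement membrane and, in the embryo, sends cells into the wall beneath, where they become fibroblasts and mural cells. It carries keratins and uroplakins as an epithelium does, and also mesenchymal genes, and its transcription factor WT1 is the textbook marker of the epicardium. Retinoic acid made by ALDH1A2, and secreted signals of the FGF and WNT families, are known for passing between this sheet and the muscle below it.

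The nuclei described here are 419 nuclei from the aortic root of newborn mice, selected on having a UMI of at least 4 of 8 mesothelial genes (Wt1, Upk3b, Msln, Lrrn4, Krt19, Upk1b, Muc16 and Bnc1). They were taken from 14073 nuclei kept out of 21140 deposited, a nucleus being kept when it had at least 1000 UMIs (unique molecular identifiers, 1 per captured RNA molecule) and at most 5% of them from the 13 mitochondrial genes. All samples belonged to 1 group: aortic valve structures of postnatal day 1 pups, frozen and combined into 3 pools of 22 to 24 aortic roots, from mice of the line B6.Cg-Scx<tm1.1(EGFP)Skom, which carries EGFP at the Scx locus. No pool without that allele was part of the group, and each pool mixes the roots of many pups, so neither allele effects nor differences between pups can be read from these data. Nuclear RNA was read by droplet single-nucleus sequencing from the RNA side of a combined chromatin and RNA kit. The comparisons below set the mesothelial nuclei against the other kept nuclei of the same pool, and against nuclei of a fibroblast and an endothelial class in those pools.

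Pools 1, 2 and 3 held 10580, 5949 and 4611 deposited nuclei with 49918251, 25341316 and 21254247 UMIs. The pools shared 99, 59 and 44 cell barcodes pair by pair, at most 1.66% of the smaller pool. Barcodes of over 50000 UMIs stood apart: 2, 1 and 9 mesothelial barcodes of pools 1, 2 and 3 passed that size, and they held 3.96%, 8.0% and 69.1% of all mesothelial UMIs of their pool. Of these 12 barcodes 11 also detected at least 4 of 8 markers of another cell class, and 6 of the 9 in pool 3 did so for all 6 other classes tested. The largest had 251275 UMIs. For the level of a gene or marker sum in the mesothelial nuclei, the value in square brackets is therefore that of pool 3 without its 9 large barcodes, and the fits were repeated with barcodes over 50000 UMIs left out of both sides. Counts of called genes are given from both fits, and log2 differences and adjusted p-values of single genes are from the fit on all barcodes unless stated.

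The mesothelial nuclei numbered 230, 100 and 89 in pools 1, 2 and 3. These were 3.25%, 3.07% and 2.37% of the kept nuclei of each pool (Wilson 95% intervals 2.86 to 3.69, 2.53 to 3.72 and 1.93 to 2.91%, which cover counting error only), a mean of 2.90% ± 0.464 (SD, n = 3 pools). They held 7.99% of all kept UMIs at 2.98% of the nuclei. Their median depth was 12598.5, 11103.5 and 7005 UMIs, against 4411, 4806 and 3383 UMIs in the other kept nuclei. Their median mitochondrial share was also higher in each pool, 2.91%, 2.88% and 2.55% against 0.708%, 1.06% and 0.450%. The rule needs several genes detected at once, so it favours deep nuclei: with every nucleus thinned to 1000 UMIs, 1.05% ± 0.196 (SD, n = 3) still reached 4 of the 8 genes.

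Most nuclei lay at one end or the other of the rule. Of the kept nuclei 12494 detected none of the 8 genes, 1043 detected 1, 90 detected 2 and 27 detected 3, whereas 25, 38, 56, 101 and 199 detected 4, 5, 6, 7 and 8. The 27 nuclei just outside the rule had a median of 3598 UMIs and the 25 just inside it had 5281 UMIs. The mesothelial genes that the rule did not use summed to 4530.3 CPM (counts scaled to 1000000 UMIs) in the nuclei just outside and to 11053 CPM in those just inside. The 27 nuclei just outside were 18 of pool 1, at 3451 CPM, and 9 of pool 3, at 8662 CPM. The nuclei of pool 3 with 6 and 7 of the genes were at 6637 and 5768 CPM. The mesothelial sums of pool 3 include its large barcodes, which held 69.1% of its mesothelial UMIs. These sums were not computed without those barcodes, so no order of these groups of pool 3 is read from them.

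**Figure D1:**
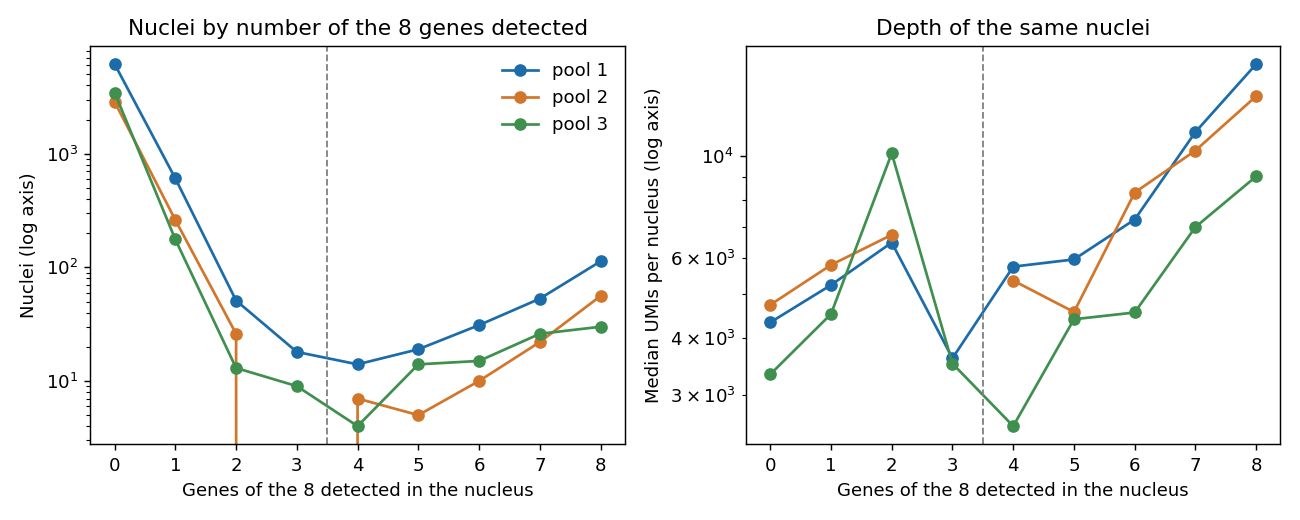
Number of kept nuclei (left, log axis) and their median UMIs (right, log axis) by how many of the 8 mesothelial genes each nucleus detected, 1 line per pool. The dashed line marks the rule of at least 4 genes. Few nuclei detect 2 or 3 genes, and 199 nuclei over all pools detect all 8.

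The 8 genes that chose the nuclei are described here without a test. Wt1, the zinc finger factor of the epicardium, was at 444, 467 and 177 [508] CPM in pools 1, 2 and 3, against 7.66, 9.11 and 8.41 CPM in the other kept nuclei. Msln, the surface glycoprotein mesothelin, was at 1844, 1903 and 489.5 [1449.8] CPM, against 7.42, 5.97 and 2.56 CPM. With the large barcodes pool 3 was the lowest pool for both genes, and without them it lay above pools 1 and 2 for Wt1 and below them for Msln. The p-values below measure only how far the difference within a pool varies over these 3 pools, since pool is a term of the fit. In the fibroblast and endothelial comparisons this spread is estimated over 21 sums, which include those of the other classes. Nothing in the labels says whether the pools came from separate litters.

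Muc16, a membrane mucin, was at 864, 922 and 385 [1139] CPM against 1.97, 1.36 and 1.53 CPM in the other nuclei. Upk3b and Upk1b encode uroplakins, membrane plaque proteins. Upk3b was at 406, 507 and 99.1 [299.6] CPM and Upk1b at 577, 490.1 and 168 [481] CPM, and no pool of other nuclei passed 1.99 CPM for either. Krt19, an epithelial keratin, was detected in 75.2, 86 and 70.8% of mesothelial nuclei and Bnc1, a zinc finger factor of epithelia, in 80.4, 79 and 70.8%. Both were the 2 least often detected of the 8 genes by the mean over pools. Upk1b was the most often detected, in 96.1, 97 and 94.4%. Among the other kept nuclei the share with a UMI ran from 0.191% (Bnc1) to 3.04% (Wt1), as means over the pools, at the lower depth given above.

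Nearly all UMIs of most of these genes came from the mesothelial nuclei: 97.6% of those of Upk3b, 97.4% of Muc16 and 96.9% of Bnc1. Genes that the rule did not use reached similar shares. Il18r1, an interleukin-18 receptor chain, had 96.4% of its UMIs in these nuclei, Tm4sf5, a tetraspanin-like membrane protein, 95.9%, and the keratin Krt7 95.5%. The complement component C3 had 94.5% of 13918 UMIs in them and Rspo1, a secreted amplifier of WNT signalling, 94.0%. In all, 160 of 15310 genes with enough UMIs to rank had over 50% of their UMIs in the mesothelial nuclei, the 8 chosen genes among them.

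**Figure D2:**
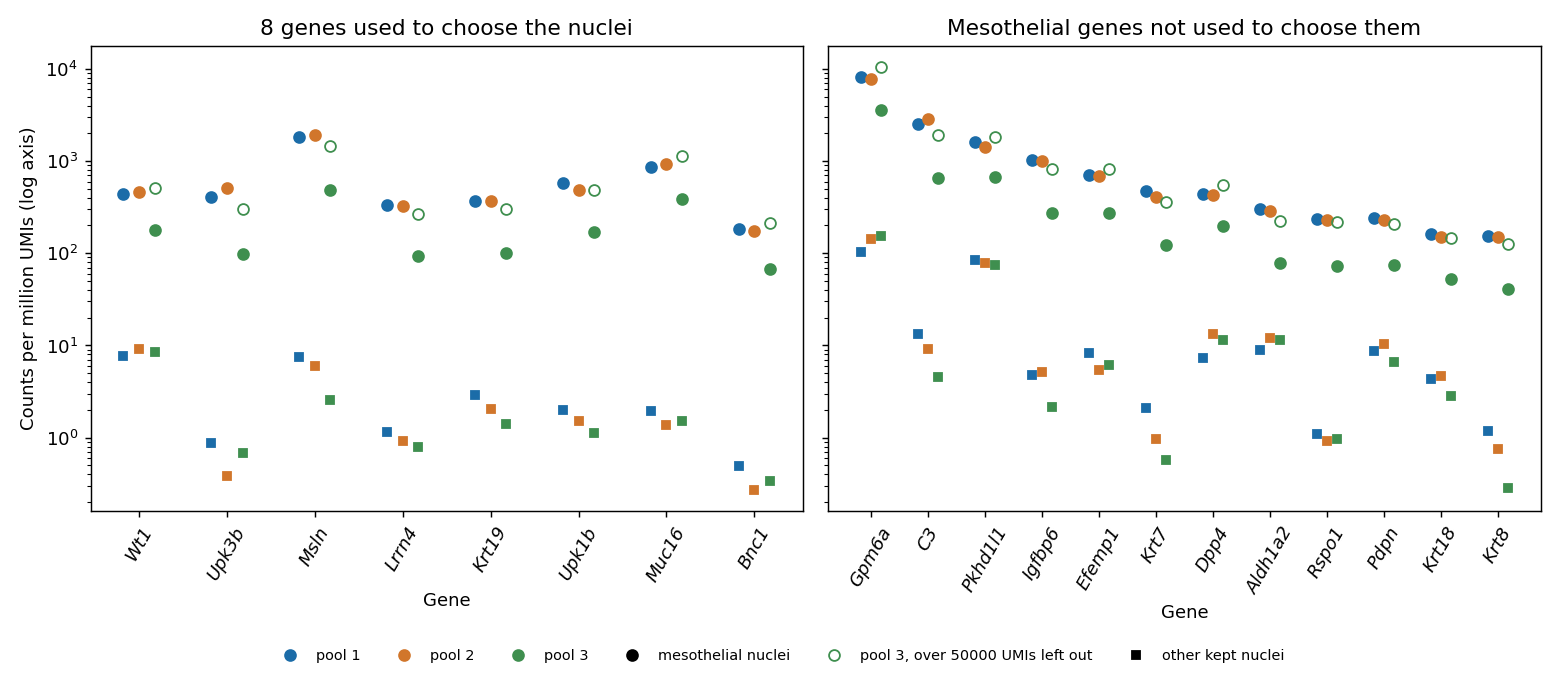
Levels in CPM (log axis) of the 8 genes that chose the nuclei (left) and of 12 mesothelial genes that did not (right). Circles are the mesothelial nuclei of each pool, squares the other kept nuclei of the same pool, and open circles pool 3 without the large barcodes. The circles lie above the squares for every gene drawn, and the open circles lie near those of pools 1 and 2.

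The defining markers of the 6 other cell classes were below the level of their own class in every pool but not at 0. Summed over 8 markers each, cardiomyocyte markers were at 626, 766 and 6770 [1927] CPM in the mesothelial nuclei, against 20482, 19791 and 21035 CPM in cardiomyocyte-class nuclei. Endothelial markers were at 583, 839 and 1358 [950.0] CPM against 5892, 5796 and 6028 CPM in their own class, and macrophage markers at 107, 47.0 and 138 [81.7] CPM against 8000.3, 8152 and 9294 CPM. Valve interstitial markers were at 1062, 1037 and 1073 [1315] CPM against 11896, 10580.0 and 11036 CPM in their own class, and 1125, 1070.1 and 1232 CPM in all other kept nuclei. Smooth muscle markers were at 655, 487 and 1627 [602] CPM against 3700.04, 4336 and 3515 CPM in their own class, and 59, 13 and 19 mesothelial nuclei detected at least 4 of these 8. Fibroblast markers were at 2717, 2843 and 1394 [2251] CPM against 5534, 6050.1 and 5136 CPM in fibroblast-class nuclei, and above the 1013, 1223 and 869 CPM of all other kept nuclei. Of these 8 fibroblast genes 2, 3 and 5 were higher than in the other nuclei of pools 1, 2 and 3, and 3 in pool 3 without the large barcodes. At least 4 of 8 markers of another class were detected in 88, 32 and 26 mesothelial nuclei, and each test was repeated without them. Genes of the epithelia of lung, foregut and thymus, which lie near the aortic root, summed to 6.26, 5.48 and 4.95 CPM over 16 genes, close to the 7.24, 4.99 and 5.17 CPM of the other nuclei, with 10, 12 and 11 of the 16 at 0. The labels call the tissue aortic valve structure and name no mesothelium. The name used here follows from the 8 genes, whose high levels were set by the choice of nuclei and are no test of it. The further mesothelial genes below were listed with earlier results of these data known, so they describe the nuclei and do not test the name independently.

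Mesothelial genes outside the 8 were higher in the mesothelial nuclei throughout the list. Of 17177 genes tested against the other kept nuclei, 3942 passed (22.9%), of which 2787 were higher (16.2% of those tested) and 1155 lower (6.72%; edgeR quasi-likelihood test on the sums of 3 pools, adjusted p under 0.05). With barcodes over 50000 UMIs left out, 9102 of 16970 passed (53.6%), 4832 higher (28.5%) and 4270 lower (25.2%). The counts changed with the pools: without pool 1 there were 1124 higher and 44 lower genes, without pool 2 884 and 7, and without pool 3 4321 and 4283. The list counts below stand beside these shares of all genes. At an unadjusted p under 0.05, in either direction, 6684 of 17177 genes passed with all pools and 6147 with no replicate block. Without pool 1 these were 3684 of 17007, and without pool 2 they were 3785 of 17386. List counts at an unadjusted p stand beside those. How often the pools of the 2 sides do not overlap was not counted over all tested genes, so such separation below describes single genes only. All 24 tested genes of the list were higher, of 26 listed, with a median log2 difference of 5.19 where all tested genes had -0.09. The count was again 24 without the large barcodes, 21 without pool 1, 20 without pool 2 and 24 without pool 3.

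Gpm6a, a neuronal membrane glycoprotein gene also known from mesothelium, was at 8065, 7839 and 3609 [10448] CPM in pools 1, 2 and 3 against 103, 144 and 153 CPM in the other kept nuclei. Every mesothelial pool lay above every pool of other nuclei, and the log2 difference was 5.67 ± 0.48 (SE; adjusted p = 0.00114). C3, the central complement component, was at 2552, 2879.7 and 657 [1916] CPM against 13.4, 9.22 and 4.60 CPM, a log2 difference of 7.81 ± 0.36 (adjusted p = 0.000159). Rspo1 was at 237, 232 and 72.3 [218] CPM against 1.09, 0.922 and 0.966 CPM, a log2 difference of 7.54 ± 0.41 (adjusted p = 0.000261). For all 3 genes the lowest mesothelial value was that of pool 3 with its large barcodes.

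The keratins of simple epithelia that the rule did not use stood together with them. Krt7 was at 479, 406 and 124 [362] CPM against 2.10, 0.976 and 0.568 CPM, a log2 difference of 8.23 ± 0.28, and its usual partners Krt8 and Krt18 differed by 7.38 ± 0.23 and 4.98 ± 0.28. Igfbp6, which binds insulin-like growth factors, differed by 7.61 ± 0.29 and Efemp1, an elastic fibre protein, by 6.41 ± 0.38. Dpp4, a surface peptidase, was at 434, 428 and 199 [556] CPM against 7.30, 13.4 and 11.4 CPM. Pdpn, the membrane mucin podoplanin, was at 240.2, 230.2 and 75.3 [207] CPM against 8.72, 10.4 and 6.59 CPM, with no overlap between the sides for either gene.

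The smallest differences of the list were those of Thbd, Ptgis, Cpe, Sulf1 and Gpc3. Thbd, the anticoagulant receptor thrombomodulin, was at 52.6, 67.3 and 22.8 [35.2] CPM against 31.05, 34.9 and 18.1 CPM, a log2 difference of 0.83 ± 0.20 (adjusted p = 0.0285), and the sides overlapped because pool 3 of the mesothelial nuclei lay below pools 1 and 2 of the others. Ptgis, prostacyclin synthase, differed by 0.89 ± 0.20 and Cpe, carboxypeptidase E, by 1.36 ± 0.22. These 3 calls were lost without pool 1 and without pool 2, as was that of Gpc3, a membrane proteoglycan (2.55 ± 0.39), without pool 2. Calb2, the calretinin gene used to stain mesothelium in human pathology, had no UMI in any of the 419 nuclei and 5 in all other kept nuclei.

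Junction and polarity genes rose in part. Of 27 tested, 13 were higher and 3 lower (17 and 7 without the large barcodes). The calls for higher genes numbered 8 without pool 1, 9 without pool 2 and 16 without pool 3. Cldn15, a pore-forming claudin, was at 148, 108 and 43.6 [120.2] CPM against 2.46, 2.49 and 1.65 CPM, a log2 difference of 5.55 ± 0.30 (adjusted p = 0.000271). Cgn, the tight junction linker cingulin, was at 38.5, 51.7 and 18.3 [52.9] CPM against 0.595, 0.325 and 0.0568 CPM, and Pard6b, of the apical polarity complex, was at 52.6, 43.8 and 24.3 [65.7] CPM against 1.55, 1.90 and 1.71 CPM. In these genes every mesothelial pool lay above every pool of others, which was not counted over all tested genes.

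Among the cadherins, the classical adhesion receptors, Cdh3 (P-cadherin) was at 322, 302 and 154 [308] CPM against 92.9, 53.7 and 64.8 CPM, a log2 difference of 1.97 ± 0.27. Cdh1 (E-cadherin) was higher too (4.14 ± 0.52), at the low level of 7.83, 6.26 and 2.48 [6.41] CPM. Cdh11, a cadherin of mesenchyme, was at 1497, 1334 and 731 [1384] CPM against 439, 436 and 475 CPM (1.46 ± 0.30), a call lost without pool 1 and without pool 2. Cdh2 (N-cadherin), a major adhesion gene of heart muscle, was lower, at 144, 155 and 909 [325] CPM against 879, 1238 and 1523 CPM (-2.00 ± 0.42; adjusted p = 0.0199). The desmosome gene Pkp2 (-1.48 ± 0.34) and the endothelial claudin Cldn5 (-1.20 ± 0.29) were the other lower members, and the calls of all 3 lower genes were lost without pool 1 and without pool 2. Cdh2 and Pkp2 stood highest among the mesothelial pools in pool 3, whose cardiomyocyte marker sum was also the highest, and without the large barcodes they were at 325 and 68.9 CPM there.

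Basement membrane and adhesion genes included 14 higher and 4 lower of 33 tested (19 and 7 without the large barcodes). Without pool 1, pool 2 and pool 3 the higher calls numbered 11, 8 and 19. Fras1, a basement membrane protein of embryonic epithelia, was at 1234, 1189 and 516 [1449.8] CPM against 57.98, 65.3 and 79.2 CPM, a log2 difference of 3.91 ± 0.42 (adjusted p = 0.00218). Lamb3, a chain of epithelial laminin, was at 61.1, 61.1 and 21.8 [62.5] CPM against 1.37, 1.41 and 1.14 CPM. Col4a4, a collagen IV chain, was at 284, 316 and 141 [360.5] CPM against 35.4, 39.9 and 34.4 CPM. Npnt, an integrin ligand of basement membranes, differed by 3.12 ± 0.41 and Itga3, a laminin receptor chain, by 1.95 ± 0.20. Each of these 5 genes was called without pool 1, without pool 2 or with the large barcodes left out. No pool of one side overlapped the other in them, a separation not counted over all tested genes.

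The 4 lower genes were the laminin chains Lama1 and Lama2, Frem1 and Smoc1. Lama2, the laminin chain of muscle, was at 155, 151 and 522 [197] CPM against 568, 655 and 809.8 CPM, a log2 difference of -1.41 ± 0.28. Frem1, a partner of FRAS1, was at 12.5, 16.4 and 77.3 [20.8] CPM against 74.8, 86.4 and 92.2 CPM (-1.51 ± 0.43), and pool 3 overlapped the other side. Smoc1, a secreted calcium-binding protein gene, was at 19.1, 25.8 and 85.2 [59.3] CPM against 148, 123 and 120.3 CPM (-1.73 ± 0.42). None of the 4 lower calls was made by edgeR without pool 1, without pool 2 or with no replicate block, where 4, 5 and 5 genes of the list were lower at an unadjusted p under 0.05, and DESeq2 on all pools called 6 lower.

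The surface coat and complement genes had 11 higher and 1 lower of 22 tested (13 and 4 without the large barcodes), with 10 higher calls without pool 1, 10 without pool 2 and 13 without pool 3. Of the hyaluronan synthases, which spin the coat polysaccharide, Has1 was higher and Has2 lower. Has1 was at 56.4, 46.2 and 20.8 [59.3] CPM against 3.05, 2.44 and 2.44 CPM, a log2 difference of 4.02 ± 0.32 (adjusted p = 0.000915). Has2, the synthase of the endocardial cushions, was at 1.57, 3.91 and 9.41 [0] CPM against 14.6, 14.5 and 20.2 CPM, a log2 difference of -1.81 ± 0.39 (adjusted p = 0.0221), a call lost without pool 1 and without pool 2.

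Aqp1, the water channel of serosal and capillary linings, was at 394, 373 and 145 [304] CPM against 48.8, 54.1 and 22.8 CPM (2.95 ± 0.18). The complement genes beside C3 were higher as well. C2 was at 119, 116 and 33.2 [97.7] CPM against 1.501, 2.17 and 1.19 CPM (5.85 ± 0.35). Cfb, the protease of the alternative pathway, differed by 4.69 ± 0.47, C4b by 3.71 ± 0.23 and the inhibitor gene Serping1 by 2.81 ± 0.29.

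Of 23 epicardial transcription factor genes tested 6 were higher and 2 lower (9 and 7 without the large barcodes), and the lower counts were near the shares of all genes, 6.72% and 25.2%. The higher calls numbered 3 without pool 1, 3 without pool 2 and 8 without pool 3, and in both of the former they were Tbx18, Bnc2 and Basp1. Tbx18, the T-box factor of the early epicardium, was at 437, 389.9 and 208 [539.9] CPM against 63.05, 51.7 and 61.3 CPM, a log2 difference of 2.62 ± 0.29 (adjusted p = 0.00246). Bnc2, the relative of Bnc1, was at 564, 689 and 232 [679] CPM against 20.4, 23.9 and 26.2 CPM (4.41 ± 0.43), and Basp1, a cofactor of WT1, at 252, 225 and 89.7 [239] CPM against 11.7, 16.1 and 10.3 CPM (3.93 ± 0.31). Gata5, a GATA factor of the heart (1.96 ± 0.33), Osr1, a zinc finger factor of mesoderm (0.93 ± 0.22), and Sox6, an SRY-box factor (1.00 ± 0.29; adjusted p = 0.0495) were the other higher genes.

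Tcf21, a basic helix-loop-helix factor of the epicardium and of cardiac fibroblasts, was at 18.2, 22.7 and 19.3 [14.4] CPM against 18.1, 24.02 and 17.4 CPM in the other kept nuclei, and the ranges overlapped (0.16 ± 0.18; adjusted p = 0.554). Tbx5, a T-box factor of the heart, was at 31.3, 43.8 and 27.7 [44.9] CPM against 30.01, 28.8 and 31.2 CPM and missed the threshold (adjusted p = 0.346). It passed with the large barcodes left out (0.55; adjusted p = 0.00352) and without pool 3, and missed the threshold under the other alternatives run, among them without the members that detect markers of another class, without pool 1 and without pool 2. Tbx20, of myocardium and endocardium, was lower at 142, 135 and 751 [240.3] CPM against 873, 1024 and 1158 CPM (-1.94 ± 0.43), a call lost without pool 1 and without pool 2.

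In the retinoic acid pathway 4 of 13 tested genes were higher and 1 lower (6 and 5 without the large barcodes). The synthesis enzyme gene Aldh1a2 was at 302, 285 and 78.3 [223] CPM against 8.98, 12.1 and 11.4 CPM, a log2 difference of 4.31 ± 0.50 (adjusted p = 0.00284). Its relative Aldh1a1 was at 215, 136 and 68.9 [127] CPM against 33.8, 31.7 and 42.9 CPM (1.98 ± 0.41). The receptor Rxra (0.86 ± 0.19) was higher too, and the receptor Rarb, a target of retinoic acid in many tissues, was lower at 42.3, 43.1 and 164 [67.3] CPM against 268, 291 and 343 CPM (-2.01 ± 0.32). Of the higher genes only Aldh1a2 was called without pool 2, and without pool 1 the higher calls included Aldh1a1 and Aldh1a2 but not Rxra. The Rarb call was lost without pool 2 and with no replicate block.

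Of 13 tested genes of the epithelial to mesenchymal transition 4 were higher and 2 lower (6 and 5 of 14 without the large barcodes). The lower genes were the repressors of epithelial genes Zeb1 and Zeb2. Zeb2 was at 106, 79.1 and 465 [129.8] CPM against 582, 527 and 649.9 CPM, a log2 difference of -1.76 ± 0.42 (adjusted p = 0.0281). Zeb1 was at 326, 384 and 653 [372] CPM against 914, 821 and 1009 CPM (-0.95 ± 0.20). Loxl2, a collagen cross-linking enzyme, was at 259.98, 204 and 69.9 [141] CPM against 30.4, 52.1 and 23.6 CPM (2.35 ± 0.34) and Twist1, a transition factor, at 20.4, 36.02 and 12.9 [25.6] CPM against 8.69, 10.03 and 7.50 CPM (1.43 ± 0.28). Without pool 1 or without pool 2 Loxl2 alone was called.

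Secreted signals moved in both directions, with 20 higher and 10 lower of 51 tested (24 and 22 without the large barcodes). The higher calls numbered 11 without pool 1, 8 without pool 2 and 21 without pool 3, and the lower calls 1, 0 and 21 (11, 7 and 21 at an unadjusted p under 0.05). The class 3 semaphorins, guidance cues, included Sema3d at 808, 781 and 355 [928] CPM against 61.8, 72.3 and 70.5 CPM (3.29 ± 0.34; adjusted p = 0.002). Sema3c was at 651, 582 and 269 [686] CPM against 78.1, 58.8 and 68.03 CPM (2.92 ± 0.32) and Sema3e at 70.2, 61.1 and 35.2 [89.7] CPM against 5.46, 6.29 and 3.01 CPM (3.64 ± 0.19). None of the 3 overlapped between the sides, a separation not counted over all tested genes.

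Fgf9, the growth factor that the epicardium sends to the muscle in the embryo, was at 37.3, 35.2 and 21.8 [33.6] CPM against 9.42, 12.9 and 13.6 CPM (1.53 ± 0.31), a call lost without pool 1 and without pool 2. Fgf18 was at 42.3, 44.6 and 21.3 [43.3] CPM against 5.90, 4.72 and 4.60 CPM (2.91 ± 0.27). Igf2, the main fetal insulin-like growth factor, was at 1216, 1638 and 556 [788] CPM against 323, 472 and 219.8 CPM (1.81 ± 0.22). The WNT ligand Wnt5a differed by 2.25 ± 0.33 and Wnt9a by 1.97 ± 0.34, both calls being lost without pool 2. Among the lower genes were Nrg1, the neuregulin of endocardium, at 20.05, 49.3 and 75.8 [32.04] CPM against 80.2, 102 and 139 CPM (-1.17 ± 0.22), and Rspo3, a relative of Rspo1, at 16.9, 21.9 and 55.5 [25.6] CPM against 86.8, 77.8 and 95.3 CPM (-1.5 ± 0.28). Rspo1 and Rspo3 thus differed in opposite directions.

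Of 45 receptor genes tested 17 were lower and 9 higher (24 and 11 of 44 without the large barcodes). That order did not hold in every fit: 4 were lower and 5 higher with no replicate block, 0 lower and 5 higher without pool 1 and 0 lower and 3 higher without pool 2 by the same edgeR test, where 16 and 11 lower genes had an unadjusted p under 0.05 without these pools. Without pool 3 the counts were 25 and 11. Bmpr1b, a BMP receptor, was at 326, 329.6 and 184 [444] CPM against 63.2, 28.3 and 44.4 CPM (2.77 ± 0.32; adjusted p = 0.00281). Plxna4, a semaphorin receptor, was at 2050.1, 2090.5 and 1023 [2658] CPM against 344, 342 and 354 CPM (2.37 ± 0.31) and Met, the receptor of hepatocyte growth factor, at 176, 123 and 81.8 [194] CPM against 26.4, 27.9 and 22.6 CPM (2.38 ± 0.24). These 3 were called without pool 1 and without pool 2. Lower were Notch1 (-1.35 ± 0.37), Notch3 (-1.57 ± 0.36), receptors of endothelium and of mural cells, and Robo2, a SLIT receptor (-1.07 ± 0.19).

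Hippo pathway genes, which couple cell contact to growth through YAP, had 6 higher and 3 lower of 28 tested (8 and 11 without the large barcodes). All genes had 16.2% higher and 6.72% lower, and 28.5% and 25.2% without the large barcodes. The higher counts of this list were near those shares, whereas the lower counts, 3 and 11 of 28, lay above them. The higher calls were Wwc1 and Amotl2 alone without pool 1 and without pool 2. None of the 3 lower calls, Ankrd1, Fat1 and Fat4, was made in the edgeR fits without pool 1 or without pool 2 (2 lower at an unadjusted p under 0.05 in each). Wwc1, the upstream regulator KIBRA, was at 179.8, 176 and 79.8 [203] CPM against 25.3, 13.6 and 17.4 CPM (3.04 ± 0.32). Amotl2, an angiomotin that binds YAP, was at 111, 95.5 and 58.96 [111] CPM against 37.3, 35.4 and 28.6 CPM (1.48 ± 0.19). The median log2 difference of the list, -0.10, was close to that of all genes.

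**Figure D3:**
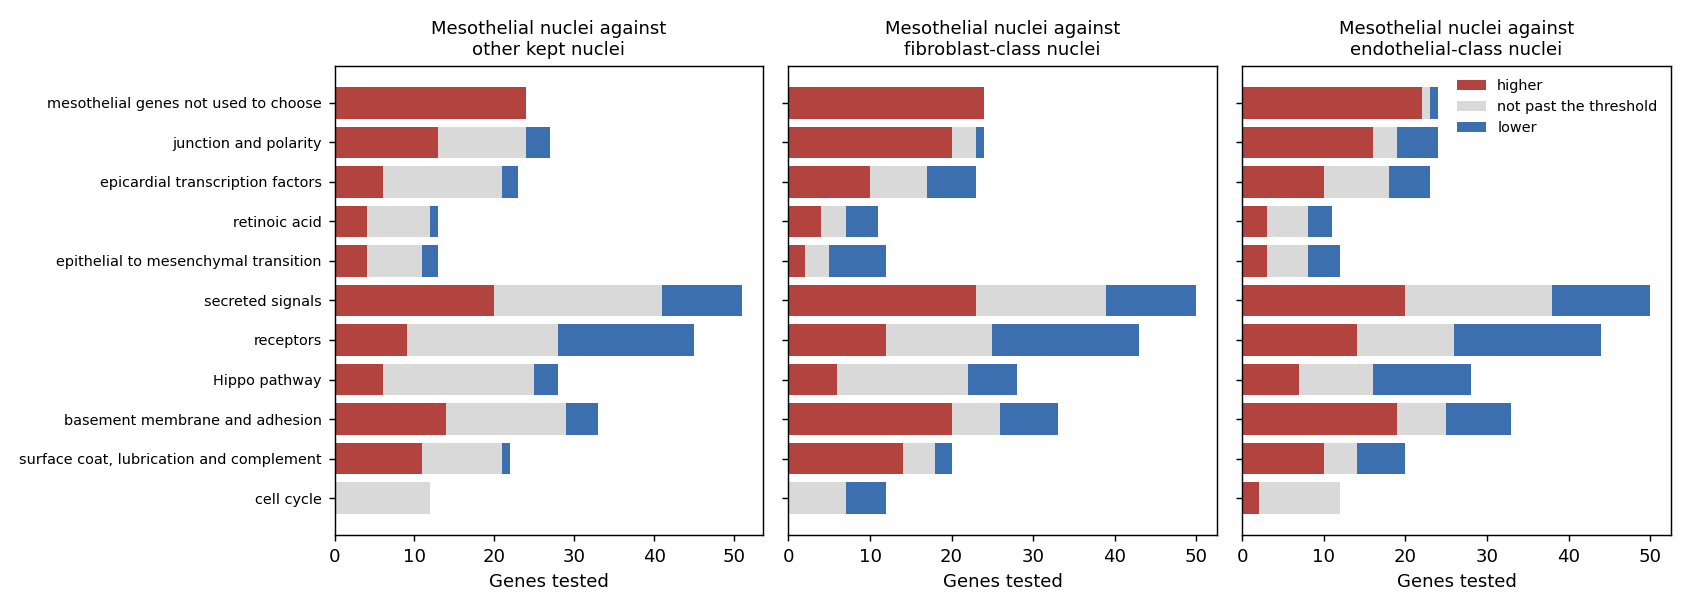
Number of tested genes of 11 lists that were higher (red), lower (blue) or not past the threshold (grey) in mesothelial nuclei against the other kept nuclei, the fibroblast class and the endothelial class (edgeR, adjusted p under 0.05 over all genes tested). The list of 24 mesothelial genes is red throughout in the first and second panels, and the receptors hold more blue than red in all panels.

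Outside the lists, the named genes with the largest higher differences ran from Il18r1 to Slurp1. They were taken from 2360 genes that passed the test, stood higher in all 3 pools and had at least 10 UMIs in every pool. Il18r1 was at 152, 123 and 44.6 [138] CPM against 0.44, 0.325 and 0.227 CPM, a log2 difference of 8.45 ± 0.26 (adjusted p = 7.52e-05). Tm4sf5 was at 78.6, 87.7 and 29.2 [80.1] CPM against 0.336, 0.271 and 0 CPM, and Apela, the secreted ligand of the apelin receptor, at 129.99, 81.4 and 36.2 [112] CPM against 0.75, 0.163 and 0.114 CPM. Krt14, a keratin of stratified epithelia, was at 91.2, 89.3 and 32.2 [96.1] CPM against 0.388, 0.542 and 0.284 CPM. The other names of the first 15 were Calcb, Fgfbp1, Cstdc2, Gjb5, Dmkn, Cst9, Fxyd3, Tmem151a, Plet1 and Gng13, besides Slurp1 (7.51 ± 0.27), and Cst9 and Cstdc2 belong to a cystatin family whose near-identical copies may share reads.

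The named genes with the largest lower differences had few or no UMIs in the mesothelial nuclei, apart from a globin gene. Il17rb and Trpm1 had no UMI in the mesothelial nuclei against 168 and 161 UMIs in the others. Against a floor of 3 counts over the group they were at least 4.86-fold and 4.66-fold lower. Hbb-bt, a beta globin of red cells, was at 20.99, 21.1 and 34.2 [33.6] CPM against 262, 511 and 588 CPM (-3.96 ± 0.24; adjusted p = 0.000355). Dct, an enzyme of melanin synthesis, had 4, 0 and 13 UMIs in the mesothelial nuclei and 1251, 836 and 358 UMIs in the others of pools 1, 2 and 3. Lyzl4, Slc36a2, Smim43, Oca2, Pip5k1bos and Plekhd1 had at most 2 UMIs each over all mesothelial nuclei, so no fold is given for them.

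Against the fibroblast class (407, 235 and 216 nuclei), 5998 of 14709 tested genes passed (40.8%), 3575 higher (24.3%) and 2423 lower (16.5%). Without the large barcodes 7409 of 14708 passed (50.4%), 3878 higher (26.4%) and 3531 lower (24%). Without pool 1 or pool 2 the higher calls numbered 1938 and 2452. At an unadjusted p under 0.05, in either direction, 7073 of the 14709 passed. All 24 tested genes of the mesothelial list were higher here as well, with a median log2 difference of 5.47 against 0.07 for all genes (19 of 23 without pool 1, 22 of 24 without pool 2). Aldh1a2 was at 76.2, 80.7 and 112 CPM in fibroblast-class nuclei of pools 1, 2 and 3, a log2 difference of 1.44 ± 0.34 (adjusted p = 0.00199), and pool 3 overlapped. That call was lost without pool 1 and without pool 2. Tbx18 was at 106, 158 and 165 CPM there (1.44 ± 0.30), a call lost without pool 1. C3 was at 21.8, 11.4 and 8.65 CPM (7.34 ± 0.29).

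Tcf21 was at 122, 157 and 109.9 CPM in the fibroblast class, above every mesothelial pool (-2.52 ± 0.16; adjusted p = 5.12e-10). The p-values of this fit take their spread from 21 sums, classes outside the comparison among them. They are thus not on the same footing as those against the other kept nuclei. Of 12 tested transition genes 7 were lower in the mesothelial nuclei and 2 higher (7 and 4 without the large barcodes). Zeb2 was at 1461, 1403 and 1551 CPM in fibroblast-class nuclei (-2.84 ± 0.31), Zeb1 differed by -2.06 ± 0.18 and Snai2, a transition factor, by -1.29 ± 0.31, of which the Snai2 call was lost without pool 1 and without pool 2. Fgf10, a mesenchymal growth factor, was at 107, 41.9 and 24.7 CPM there and at 1.25, 0 and 0.991 [0] CPM in the mesothelial nuclei (4, 0 and 2 UMIs). Lama2 (-2.79 ± 0.30) and the growth factor Ptn (-2.68 ± 0.19) were lower as well.

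Junction genes were higher in 20 of 24 tested and lower in 1, Pard3 (-0.47 ± 0.15), with 13 higher without pool 1 and 18 without pool 2. Without the large barcodes 19 of 25 were higher and 2 lower. Basement membrane and adhesion genes were higher in 20 of 33 and lower in 7 (21 and 8 without the large barcodes). Itga3 was at 5.18, 1.52 and 0 CPM in fibroblast-class nuclei (5.03 ± 0.36) and Fras1 differed by 5.89 ± 0.40. Of 12 cell cycle genes 5 were lower and 0 higher, as without the large barcodes (6 lower and 0 higher at an unadjusted p under 0.05 with all barcodes). Against the endothelial class 2 of the 12, Anln and Top2a, were higher and 0 lower (6 and 0 without the large barcodes), and 0 were higher without pool 1 and without pool 2 (4 higher and 0 lower at an unadjusted p under 0.05 with all pools, 4 higher without pool 1 and 0 without pool 2; DESeq2 on all pools called 1 higher).

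Against the endothelial class (1435, 787 and 675 nuclei), the other lining of the root, 6441 of 14709 genes passed (43.8%), 3598 higher (24.5%) and 2843 lower (19.3%). Without the large barcodes 8055 of 14708 passed (54.8%), 3952 higher (26.9%) and 4103 lower (27.9%). Without pool 1 or pool 2 the higher calls numbered 2037 and 2453. At an unadjusted p under 0.05, in either direction, 7458 of the 14709 passed. Without pool 1 these were 5159 of 14453, and without pool 2 they were 5800 of 15283. Of the 24 mesothelial genes 22 were higher, 1 was lower and Cpe did not pass (adjusted p = 0.181), though it passed without the large barcodes (0.67). The lower gene was Thbd, at 99.5, 94.1 and 77.8 CPM in endothelial-class nuclei (-0.90 ± 0.21; adjusted p = 0.00136). Pkhd1l1 was at 1603, 1409 and 670.4 [1846] CPM in the mesothelial nuclei and at 286, 246 and 315 CPM in the endothelial class (2.26 ± 0.31). Gpm6a was at 239.6, 376 and 432 CPM there (4.46 ± 0.48), and C3 was at 14.2, 8.73 and 3.13 CPM (7.95 ± 0.28).

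Of 24 junction genes tested 16 were higher and 5 lower in the mesothelial nuclei (17 and 5 of 25 without the large barcodes), beside 24.5% higher and 19.3% lower among all genes, so the lower count was near that of all genes. The lower ones included Cldn5, at 292, 322 and 216 CPM in the endothelial class (-3.06 ± 0.26), Ocln (-2.94 ± 0.33), Tjp1 (-0.48 ± 0.18) and Pard3, and of these 4 all but Pard3 were higher against the fibroblast class. The Tjp1 call was lost without pool 1, and against the fibroblast class Ocln and Tjp1 were not called without pool 1 and Ocln was not called without the large barcodes. Tcf21 was at 5.79, 6.65 and 5.21 CPM in the endothelial class (1.86 ± 0.19; adjusted p = 1.67e-07). The mesothelial level of Tcf21 thus lay between the other classes, below the fibroblast and above the endothelial class in every pool. Fgf9 was at 0.794, 0.623 and 0.695 CPM in endothelial-class nuclei (5.53 ± 0.38) and at 30.3, 33.8 and 29.2 CPM in cardiomyocyte-class nuclei, next to 37.3, 35.2 and 21.8 [33.6] CPM in the mesothelial nuclei. The surface sialomucin Podxl (-1.34 ± 0.17), the forkhead factor Foxc2 (-2.04 ± 0.33) and Nrg1 (-2.74 ± 0.31) were lower. Both comparisons came from 1 fit and used the same mesothelial sums, so they are not independent of each other.

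**Figure D4:**
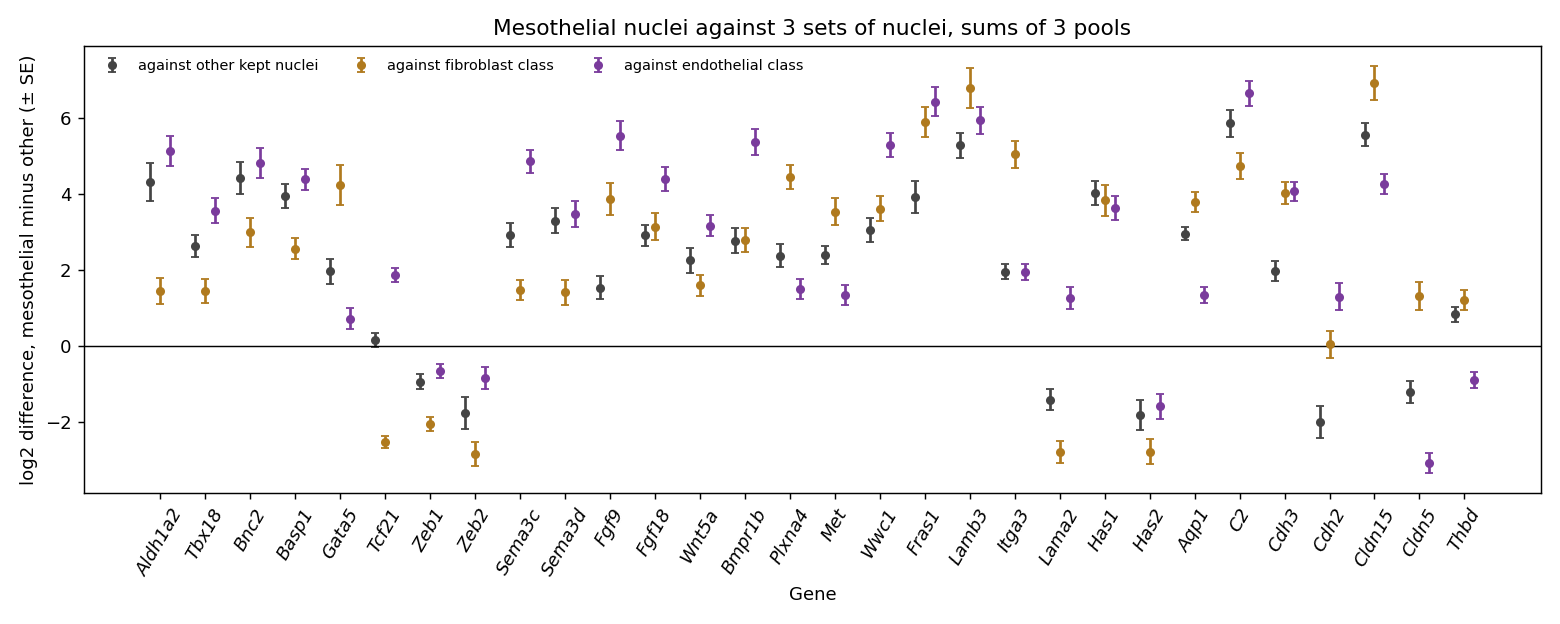
Log2 difference of 30 genes between mesothelial nuclei and the other kept nuclei (grey), the fibroblast class (ochre) and the endothelial class (purple), with bars of 1 SE derived from the F statistic of the edgeR fit on 3 pools. Tcf21 lies below 0 against the fibroblast class and above 0 against the endothelial class, Thbd the reverse, and Zeb1, Zeb2 and Has2 lie below 0 against all of them.

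The mesothelial nuclei also differed among themselves. For each gene the variance of its UMIs over nuclei was divided by the variance that counting alone gives at the nucleus depths, and the median ratio over 8354 genes was 1.36. With barcodes over 50000 UMIs left out it was 1.37 over 6570 genes, and the largest ratios were those of Ryr2 (103), Rbfox1 (90.5) and Ttn (82.5), as medians over the pools. Ryr2 and Ttn are genes of the cardiomyocyte contractile cell, and they had no UMI in most mesothelial nuclei: 69.7, 66.7 and 82.5% of the nuclei of pools 1, 2 and 3 were at 0 for Ryr2. Their 95th percentiles were 2.52, 7.82 and 8.19 UMIs per 10000 for Ryr2 and 3.78, 16.2 and 40.1 for Ttn. Ryr2 was at 10103, 11606 and 11265 CPM in the cardiomyocyte class.

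Rbfox1, an RNA splicing factor gene of neurons and muscle, spread more evenly. Its 25th, 50th and 75th percentiles in pool 1 were 0.923, 8.86 and 31.5 UMIs per 10000, with 0.869, 11.2 and 35.7 in pool 2 and 3.01, 17.9 and 51.3 in pool 3. Its level summed over nuclei was 2390, 2602 and 1227 [3212] CPM in the mesothelial nuclei and 693, 725 and 751 CPM in the cardiomyocyte class. C3 ran from a 25th percentile of 4.20, 7.78 and 3.71 to a 75th of 38.3, 45.3 and 25.6 UMIs per 10000 in pools 1, 2 and 3, and 11.4, 8.08 and 15% of nuclei had none. Gpm6a was present in nearly every nucleus, at medians of 73.3, 86.3 and 104 UMIs per 10000, and at most 0.877% of the nuclei of a pool had none. The collagen gene Col1a1 was likewise found in nearly all, at medians of 51, 47.4 and 42 UMIs per 10000 against 3.27, 3.12 and 0 in the other nuclei. The part of nucleus depth or of mixed barcodes in these ratios was not tested beyond the limit on barcode size.

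**Figure D5:**
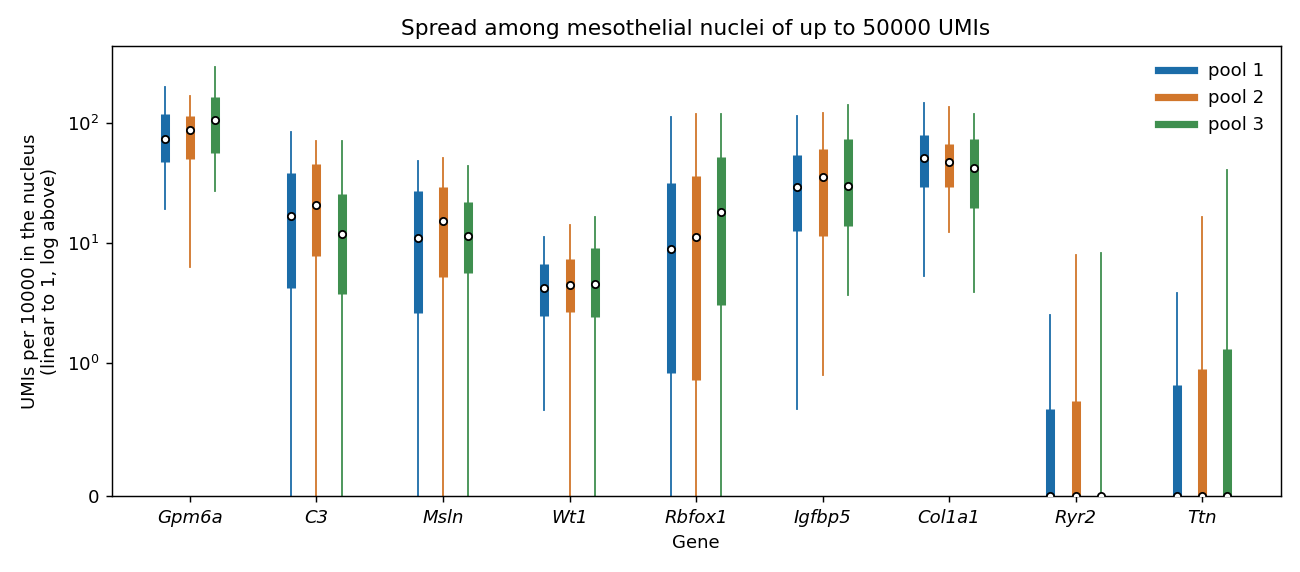
UMIs per 10000 UMIs of the nucleus for 9 genes among mesothelial nuclei of up to 50000 UMIs, on an axis linear to 1 and logarithmic above. Thin lines run from the 5th to the 95th percentile, thick bars from the 25th to the 75th, and the white points are medians, 1 set per pool. Gpm6a and Col1a1 are present throughout, Rbfox1 and C3 spread widely, and the medians of Ryr2 and Ttn are at 0.

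Cycling nuclei were counted after thinning each nucleus to 1000 UMIs, as those with at least 2 UMIs over 12 cell cycle genes. They were 12 of 230 mesothelial nuclei in pool 1 (5.22%, Wilson 95% interval 3.01 to 8.90), 13 of 100 in pool 2 (13%, 7.76 to 20.98) and 3 of 89 in pool 3 (3.37%, 1.15 to 9.45), a mean of 7.20% ± 5.11 (SD, n = 3). The other kept nuclei had 6.52% ± 0.893, the fibroblast class 11.2% ± 3.27 and the endothelial class 4.59% ± 0.895. Pool by pool, the fibroblast class had 8.85%, 14.9% and 9.72%, above the mesothelial nuclei of the same pool each time, whereas the other kept nuclei had 7.44%, 6.47% and 5.66% and the endothelial class 5.02%, 3.56% and 5.19%, with the mesothelial share above in some pools and below in others. The shares were not tested. Their order depended on the thinning: without it the mesothelial nuclei had 22.6%, 33% and 19.1%, above the 21.4%, 23.8% and 17.6% of the fibroblast class in each pool. Counting nuclei with at least 1 UMI after thinning gave 12.3% ± 5.91 in the mesothelial nuclei, 14.5% ± 2.60 in the other kept nuclei and 19.7% ± 3.17 in the fibroblast class. Mki67, the proliferation marker, was at 63.9, 165 and 42.6 [52.9] CPM against 52.7, 53.4 and 38.2 CPM, highest in pool 2 (adjusted p = 0.102). None of the 12 genes passed the edgeR test against the other kept nuclei (2 higher at an unadjusted p under 0.05, and 0 passed by DESeq2), whereas 7 were higher and 1 lower with the large barcodes left out. Without the members that detect markers of another class only Mki67 was higher and 4, Kif11, Kif15, Knl1 and Anln, were lower.

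The EGFP reporter of the strain was at 4.39, 7.83 and 9.41 [9.61] CPM in the mesothelial nuclei (14, 10 and 19 UMIs) and at 8.41, 9.54 and 5.63 CPM in the others, so the ranges overlapped. Scx itself, a tendon and valve factor, had 2, 0 and 3 UMIs in the mesothelial nuclei, too few to compare at this depth.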

How the data were processed

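Nuclear RNA of 3 pools of postnatal day 1 aortic roots was measured by droplet single-nucleus sequencing. The authors deposited, for each nucleus, UMI counts of 36167 features with no normalization, and their matrix headers carry the name cellranger-7.1.0. The submitters' processing notes name Cell Ranger 7.0.1 and 7.1.0 and build GRCm39. No steps beyond these are given in the sources used here.

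Nuclei with at least 1000 UMIs and at most 5% mitochondrial UMIs were kept. Members detected at least 4 of 8 genes. No clustering and no doublet caller was run. Mixed barcodes were treated by leaving out members with at least 4 of 8 markers of another class, or barcodes over 50000 UMIs, a limit chosen after the totals were seen. Other classes are non-members with at least 4 of their own 8 markers and more of these than of any other class's. The members and gene lists were chosen with earlier results of these data known.

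Counts were summed per pool and side (6 sums) or per pool and class (21 sums). edgeR 4.0.16 (R 4.3.3) quasi-likelihood tests were run with TMM, filterByExpr and pool as a block, since both sides of a pool come from 1 library. The 8 rule genes stayed in library sizes and were not tested, nor were the markers of the 2 classes compared in the class contrasts. Adjusted p-values are Benjamini-Hochberg over all genes tested, and calls use 0.05. CPM is UMIs scaled to 1000000 over the summed nuclei. A log2 difference is mesothelial minus other. Its SE was derived from the test, as the size of the log2 difference divided by the square root of the F statistic. The fits were tested on simulated data. DESeq2 1.42.0 was an alternative, as were other size factors, filters and rules and leaving out each pool.

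Named genes come from the lists, or are the 15 largest higher and 10 largest lower differences among genes called, in the same direction in all 3 pools, with at least 10 UMIs in every pool on the higher side and unnamed loci left out. Genes named for their spread or for their share of UMIs in the members follow those rankings. Wilson intervals and the floor of 3 counts cover counting error only. Some genes counted in the lists are not reported here by name.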

Additional observations from a re-analysis of the deposited data

How the results depend on the processing

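The share of mesothelial nuclei, 2.90% of kept nuclei, moved beyond the spread of the pools under 2 alternatives, falling to 1.93% without members that detect markers of another class and to 1.05% with the 8 genes counted after thinning. It stayed between 2.73% and 3.24% under the other 5. The cycling share of 7.20% rose to 24.9% without thinning and stayed between 5.41% and 12.3% otherwise. Against the other kept nuclei 3942 genes were called, 9270 without members that detect markers of another class and 9102 with barcodes over 50000 UMIs left out. Of the 3942 genes 3886 and 3937 remained called in the same direction. Leaving out 1 pool gave 891 to 8604 calls. The lowest was without pool 2, and without pool 3, whose large barcodes hold most of its mesothelial UMIs, 3932 of the 3942 remained. With no replicate block, that is without pool as a term, 2429 genes were called. RLE size factors gave 3881, DESeq2 4101, no filter 5092 and depth-matched other nuclei 3689, with 2345 of the 3942 kept after thinning (3480 calls, 49 of the 3942 with the opposite sign). Of the calls 70.7% were for higher genes, against 49.3% after thinning, 43.4% without members with another class and 53.1% without the large barcodes, and 96.2%, 99.2% and 50.2% without pools 1, 2 and 3 and 82.0% with no replicate block. DESeq2 gave 64.4% and no filter 56.9%.

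Against the fibroblast class 5998 genes were called, 4757 with no replicate block, 3938 with only the 2 classes in the fit and 3257 to 6676 without a pool. Against the endothelial class 6441 were called, 4986 with no replicate block, 3778 with only the 2 classes in the fit and 3497 to 7514 without a pool. Without members that detect markers of another class 7606 and 7883 genes were called against the fibroblast and endothelial class, and 192 of the 5998 and 213 of the 6441 calls had the opposite sign. Fewer samples enter the fits on 2 classes and those without a pool, and the fits on 2 classes take no spread from the other classes. Among genes named with values, the log2 difference of Tcf21 against the other kept nuclei reversed after thinning, to -0.42 (adjusted p = 0.694), where the main difference had missed the threshold as well. The cause was not tested for any other change. Genes at a few UMIs per pool, such as Scx, are beyond this depth.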
